A study of Homo sapiens with 6 samples.

Results

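Rab genes encode small GTPases of the Ras superfamily that mark the membranes of the secretory and endocytic pathways. A Rab is carried to its membrane by a prenyl group, is switched on by a guanine nucleotide exchange factor (GEF), recruits effectors such as tethers and motors while bound to GTP, and is switched off by a GTPase-activating protein (GAP). Different Rabs serve the endoplasmic reticulum (ER) and Golgi, the exocytic route, early and recycling endosomes, and late endosomes and lysosomes, and in epithelial cells they are known for sorting receptors, adhesion proteins and secretory cargo. The members were all protein-coding genes whose symbol is RAB followed by a number and an optional letter. The pattern matched 94 symbols, of which 20 are not protein-coding and 10 are protein-coding genes named for an interaction with a Rab (such as RAB11FIP1 and RAB3GAP1), so 64 genes remained of the 62696 listed. Of these, 52 passed the filter on low counts and were tested among 18569 genes. The 12 others (RAB3C, RAB6C, RAB6D, RAB19, RAB25, RAB37, RAB39A, RAB39B, RAB40A, RAB40AL, RAB41 and RAB44) had at most 25 counts in any library, and RAB41 had 0 in all 6. RAB25, an epithelial relative of RAB11, had 0 to 3 counts per library.

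The RNA came from 12Z cells, an established epithelial line from human endometriosis, collected 72 h after lipid transfection. The control group of 3 libraries (A, B and C) received a control siRNA, a short double-stranded RNA used as a transfection control, and the other group of 3 libraries (A, B and C) received a single siRNA whose target is the long non-coding transcript LINC01638. Total RNA was depleted of ribosomal RNA and sequenced with strand information as 50 bp read pairs. With 1 siRNA and 1 line, effects of the siRNA itself and of the loss of its target cannot be told apart. The labels do not say whether the libraries of a group are separate cultures, so the p-values reflect only how far these libraries vary, and that variation could be technical.

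Libraries held 45617234 to 58148664 counts in genes. LINC01638 itself stood at 7.64, 7.65 and 7.81 CPM (counts relative to the size of the library after scaling with TMM, the trimmed mean of M-values) in the control libraries A, B and C, respectively, and at 2.29, 1.98 and 2.05 CPM in libraries A, B and C of the LINC01638 siRNA group. Values for the libraries are listed in that order throughout. That is a log2 fold change of -1.87 (edgeR's quasi-likelihood test, Benjamini-Hochberg adjusted p = 3.73e-11). Of the mapped reads, 8.32% to 10.1% fell outside annotated exons in control libraries and 12.1% to 15.1% in LINC01638 siRNA libraries. Summed epithelial markers (6 genes, mostly the keratins KRT8, KRT18 and KRT19) were 5171 to 5618 CPM in control and 3179 to 3708 CPM in LINC01638 siRNA libraries. Of these 6 genes, 5 were lower and 1 was higher: EPCAM, an epithelial adhesion protein, was low and went the other way, from 0.377 ± 0.0682 CPM in control to 1.38 ± 0.201 CPM with LINC01638 siRNA (SD, n = 3 each, log2 1.86, adjusted p = 2.33e-06). Summed endometrial stromal markers (4 genes) went from 173 to 190.5 CPM down to 118 to 133 CPM. Of these, 3 were lower and DES, below 1 CPM, was higher (log2 1.17). Endothelial markers (5 genes) were 12.7 to 15.4 and 10.5 to 12.5 CPM. KDR was lower (log2 -0.62), while CDH5 and VWF were higher from low levels (log2 0.77 and 0.86). Immune markers (6 genes) were 46.6 to 53.6 and 34.7 to 35.8 CPM, mostly CD14 (means 48.9 and 34.6 CPM). CD3E was at 0 in all 6 libraries. Whether any of these shifts had a part in the Rab results was not tested. In bulk RNA, fewer cells of a type and less RNA per cell cannot be told apart.

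Among the 52 tested Rab genes, 15 were higher and 23 lower with LINC01638 siRNA, and 14 did not pass the threshold. The 38 that passed are 73.1% of those tested, beside 64.8% of the 13601 protein-coding genes tested and 56.0% of all genes tested. Higher calls were 28.8% of Rab genes and 28.6% of protein-coding genes, and lower calls were 44.2% and 36.3%. Most Rabs are well expressed, and where the mean reached 5 CPM, 33 of 43 Rab genes and 69.7% of protein-coding genes passed. The share of Rab genes called is therefore near that of other protein-coding genes of similar level. The median log2 fold change was -0.14 for Rab genes and -0.04 for protein-coding genes, and single Rab genes ranged from -1.12 to 0.92. Changes of at least 1.5-fold past the threshold were seen for 11 Rab genes, 4 higher and 7 lower, against 22.1% of protein-coding genes. The libraries of the groups did not overlap for 38 Rab genes, or 73.1%, beside 69.6% of protein-coding genes. Of these, 36 also passed the test, while RAB10 and RAB8B passed with overlapping libraries, and RAB6B and RAB8A did not overlap and did not pass. The excess of lower over higher calls depends on the scaling: scaling by library totals alone, which moves the median of all genes up by 0.10 on the log2 scale, gave 19 higher and 14 lower. A stricter filter on low counts and a fit on protein-coding genes alone each gave 18 higher and 19 lower.

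**Figure D1:**
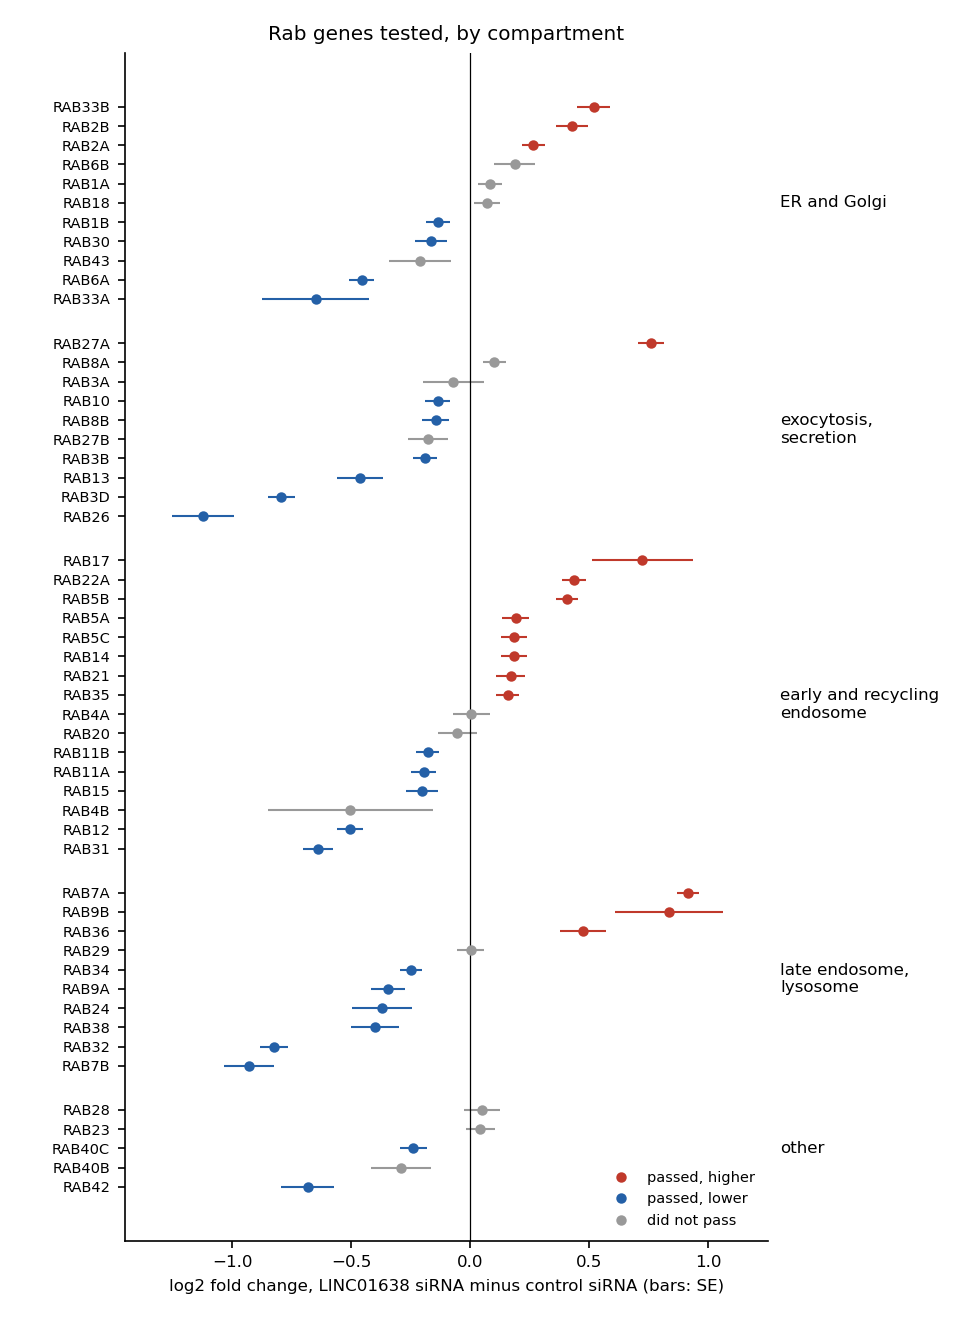
Log2 fold change (LINC01638 siRNA minus control siRNA, 3 libraries each) of the 52 tested Rab genes, arranged by compartment, with bars of 1 SE and colours for the call at an adjusted p of 0.05. RAB7A stands highest at 0.92 and RAB26 lowest at -1.12, and each compartment except the unassigned genes holds both higher and lower Rabs.

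Called members were counted per compartment, to be read beside 28.6% higher and 36.3% lower among tested protein-coding genes. Of 16 tested Rabs of early and recycling endosomes, 8 were higher and 5 lower (median log2 fold change 0.08). Of 11 tested ER and Golgi Rabs, 3 were higher and 4 lower (27.3% and 36.4%, median 0.07), near the shares of protein-coding genes. Of 10 tested Rabs of exocytosis and regulated secretion, 1 was higher and 6 lower (median -0.16). Of 10 tested Rabs of late endosomes, lysosomes and lysosome-related organelles, 3 were higher and 6 lower (median -0.30). The ER, Golgi and exocytic Rabs together, the secretory route as a whole, had 4 higher and 10 lower of 21 (median -0.14). The 5 tested genes assigned to none of these had 0 higher and 2 lower. These are descriptions of small lists. Neither the difference between compartments nor that from protein-coding genes was tested. Under scaling by library totals alone the ER and Golgi Rabs stood at 6 higher and 2 lower, and the exocytic Rabs at 2 higher and 3 lower.

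RAB7A, which directs late endosomes and autophagosomes to fuse with lysosomes, had the largest rise of the tested Rabs. Its gene lies on chromosome 3, positions 128726122 to 128814796 of GRCh38, on the plus strand. It was read at 161, 156 and 154 CPM in control and at 294, 300.2 and 295 CPM in LINC01638 siRNA libraries. The groups were far apart: the means were 157 ± 3.30 and 297 ± 3.13 CPM (SD, n = 3 each), a 1.89-fold rise (log2 0.92, SE 0.0468, adjusted p = 5.22e-12). RAB7B, the paralogue linked to traffic from late endosomes to the trans-Golgi network, moved the other way. It was read at 9.16, 8.22 and 7.49 CPM in control and at 4.14, 4.41 and 4.51 CPM in LINC01638 siRNA libraries. Every LINC01638 siRNA library was below every control library, and the fall was 1.90-fold (log2 -0.93, SE 0.103, adjusted p = 2.14e-07). RAB7B thus supplied 3.74% ± 0.289 of the summed RAB7A and RAB7B level per kilobase of exon in control libraries and 1.07% ± 0.0437 with LINC01638 siRNA.

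RAB32, a Rab of lysosome-related organelles such as melanosomes, which also holds a signalling kinase near mitochondria, had the lowest p of the falling members of this compartment. Its gene spans positions 146543693 to 146554965 of chromosome 6 on the plus strand. RAB32 was read at 116, 99.4 and 102 CPM in control and at 57.9, 63.1 and 58.3 CPM in LINC01638 siRNA libraries. Control replicate A was the highest library and the groups did not overlap, with means of 106 ± 9.04 and 59.8 ± 2.91 CPM (1.77-fold lower, log2 -0.82, adjusted p = 6.83e-10). RAB38, its close relative in the same organelles, was also lower (log2 -0.40, adjusted p = 0.0023). RAB34, which takes part in lysosome positioning and cilium formation, was read at 147, 139.6 and 138 CPM in control and at 117, 120.3 and 119.7 CPM in LINC01638 siRNA libraries. Its libraries did not overlap, and the fall was 1.19-fold (adjusted p = 0.000138). RAB36, which like RAB34 binds the lysosomal adaptor RILP, rose from 6.98, 7.05 and 5.98 CPM to 9.16, 8.60 and 9.93 CPM (1.39-fold, adjusted p = 0.000305).

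The remaining tested members of the late endosomal and lysosomal list were RAB9A, RAB9B, RAB24 and RAB29. RAB9A, which returns mannose 6-phosphate receptors from late endosomes to the Golgi, was lower (log2 -0.35, adjusted p = 0.000449). Its paralogue RAB9B was higher (log2 0.84, adjusted p = 0.00384), at 0.618 to 0.848 CPM in control and 1.05 to 1.41 CPM in LINC01638 siRNA libraries. RAB24, linked to autophagy, was lower (log2 -0.37, adjusted p = 0.0165), but 44.8% of its exon bases are shared with a neighbouring gene on the same strand, so its count is uncertain, and it missed the threshold without control library B or LINC01638 siRNA library C (adjusted p = 0.0541 and 0.0531). RAB29, which acts at the Golgi and lysosome and recruits the kinase LRRK2, did not pass: it was read at 39.7, 37.0 and 37.9 CPM in control and at 36.8, 40.2 and 37.8 CPM in LINC01638 siRNA libraries, which overlap.

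**Figure D2:**
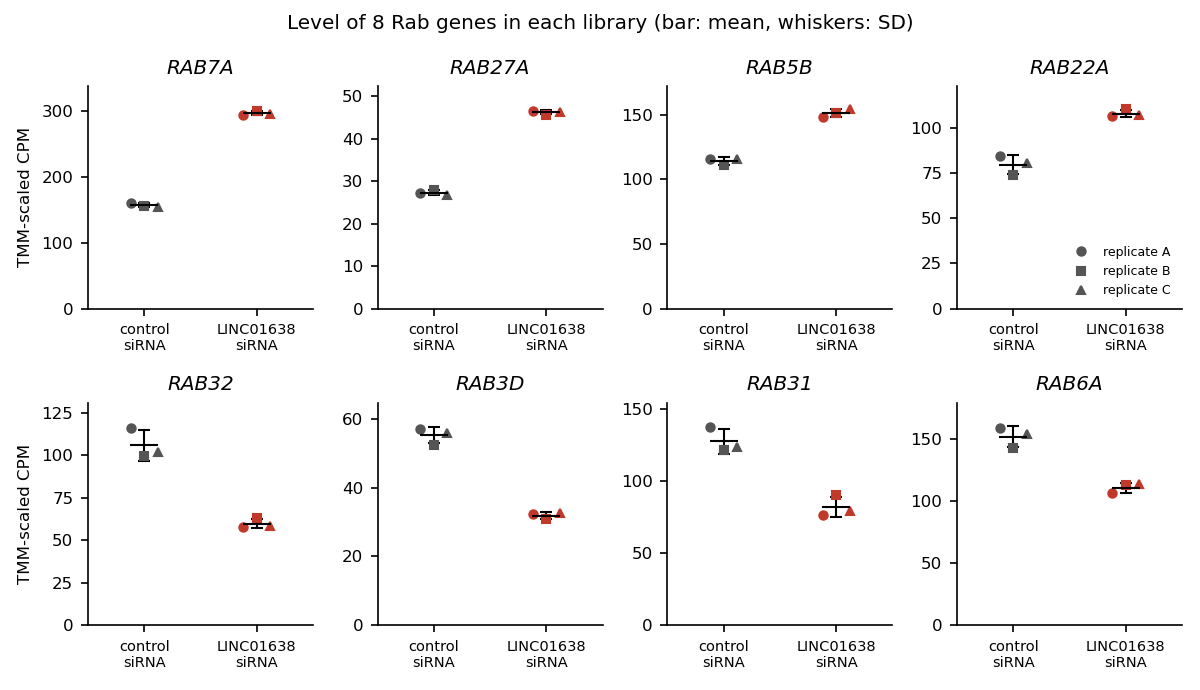
TMM-scaled CPM in each of the 6 libraries for 8 Rab genes, with points for libraries A, B and C of each group and bars and whiskers for the group means and SD. RAB7A sits at 154 to 161 CPM in control and 294 to 300.2 CPM in LINC01638 siRNA libraries, and RAB32 and RAB3D move the other way without overlap.

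Because RAB7A, RAB7B and RAB32 serve late endosomal membranes and moved in different directions, the 250 bases before their annotated starts are shown here (RefSeq, GRCh38.p14, 5′ to 3′ on the strand of the gene). They are RAB7A at chr3:128725933-128726182 on the plus strand, the first of the listed starts of RAB7B at chr1:206003396-206003645 on the minus strand, and RAB32 at chr6:146543583-146543832 on the plus strand. Capitals mark matches, on either strand, to CACGTG (an E-box), to TGACNNNGC (a word of antioxidant response elements), to CCAAT (bound by the factor NF-Y) or to TATAAA (the TATA box).
RAB7A: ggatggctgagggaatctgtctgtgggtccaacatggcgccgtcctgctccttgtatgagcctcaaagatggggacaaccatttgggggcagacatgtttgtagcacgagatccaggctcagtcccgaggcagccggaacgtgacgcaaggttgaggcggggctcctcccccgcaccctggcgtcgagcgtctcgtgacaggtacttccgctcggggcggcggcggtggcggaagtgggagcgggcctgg
RAB7B: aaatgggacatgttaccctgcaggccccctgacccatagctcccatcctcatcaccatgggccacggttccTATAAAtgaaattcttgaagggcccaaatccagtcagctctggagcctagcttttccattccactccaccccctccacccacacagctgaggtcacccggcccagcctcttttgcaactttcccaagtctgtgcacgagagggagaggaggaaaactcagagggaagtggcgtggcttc
RAB32: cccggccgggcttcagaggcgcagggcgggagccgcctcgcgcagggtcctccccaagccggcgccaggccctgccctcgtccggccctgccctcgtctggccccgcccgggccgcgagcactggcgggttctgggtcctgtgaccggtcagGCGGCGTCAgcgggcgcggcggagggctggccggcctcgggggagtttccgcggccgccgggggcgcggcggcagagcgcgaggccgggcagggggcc
RAB7A holds none of the 4 words in this window and has 64.8% G and C. RAB7B has TATAAA 179 bases before the start and 55.6% G and C. RAB32 holds TGACNNNGC on the opposite strand and has 82.0% G and C.

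CACGTG is the core of the element through which lysosomal genes are known to be controlled by TFEB and its relatives, and it was counted for that reason. It occurred in 7.37% of 22199 promoter windows of protein-coding genes and in 5 of the 72 listed starts of Rab genes, which belong to 51 of the 64 members. The 5 genes are RAB4A, RAB5A, RAB21, RAB24 and RAB31, shown here as windows of 30 bases with the word in capitals.
RAB4A: gcccagcccgcgCACGTGcttccggcgcgc
RAB5A: cactcgcagggtCACGTGacatcctgcctc
RAB21: ggcaccggcgctCACGTGacccgaggtgtg
RAB24: cggcgcccgcgcCACGTGaccttgcggccc
RAB31: ccggccggcggcCACGTGacccaccgcggc
Of these 5 genes, RAB5A and RAB21 were higher, RAB24 and RAB31 were lower, and RAB4A did not pass the test. TGACNNNGC occurred in 11.2% of all windows and in 12 of 72 Rab starts. Of the 11 genes holding it, 3 were higher (RAB5A, RAB5B and RAB5C), 5 were lower, 2 did not pass and 1 was not tested. CCAAT was in 32.7% of all windows and 20 of 72 Rab starts, and TATAAA in 9.0% and 6 of 72. These matches describe letters in a window and say nothing of binding.

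Among Rabs of exocytosis and regulated secretion, RAB27A rose and 6 others fell past the threshold. With DESeq2 size factors, the DESeq2 Wald test, the stricter filter or protein-coding genes only, 4 were lower. RAB27A docks secretory granules, melanosomes and exosome-bearing endosomes at the plasma membrane, and its gene lies on chromosome 15 at positions 55202966 to 55319113 on the minus strand. It was read at 27.3, 27.8 and 26.8 CPM in control and at 46.6, 45.7 and 46.3 CPM in LINC01638 siRNA libraries. The libraries within a group were close and the groups far apart, with means of 27.3 ± 0.533 and 46.2 ± 0.470 CPM (1.69-fold, log2 0.76, SE 0.0541, adjusted p = 4.86e-10). RAB27B, the other member of this pair, did not pass (16.8, 14.0 and 15.9 CPM against 12.7, 15.3 and 13.5 CPM, adjusted p = 0.0853), and its groups overlapped. It passed as lower without control library B or LINC01638 siRNA library B (adjusted p = 0.0209 and 0.0173). RAB27A supplied 70.0% ± 2.24 of the summed pair per kilobase in control libraries and 81.6% ± 1.60 with LINC01638 siRNA.

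RAB3D, which sits on secretory granules of exocrine and other cells, was read at 57.1, 52.6 and 56.1 CPM in control and at 32.3, 30.9 and 32.6 CPM in LINC01638 siRNA libraries. The groups did not overlap, and RAB3D was 1.73-fold lower (log2 -0.79, SE 0.0549, adjusted p = 3.29e-10). RAB3B, its more abundant relative, went from 249.6, 260.5 and 257 CPM to 238, 220.2 and 214 CPM, a 1.14-fold fall (adjusted p = 0.00331, but 0.148 with scaling by library totals alone). RAB3B is the granule Rab of highest level here, and its share of the summed RAB3 level per kilobase was 57.2% in control and 64.7% in LINC01638 siRNA libraries, while that of RAB3D was 35.9% ± 1.18 and 26.8% ± 0.793. RAB3A did not pass (log2 -0.07, adjusted p = 0.662).

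RAB26, which takes part in the maturation of secretory granules, was read at 7.30, 6.78 and 7.11 CPM in control and at 3.61, 2.43 and 3.66 CPM in LINC01638 siRNA libraries. It had the largest fall of the tested Rabs (2.18-fold, log2 -1.12, SE 0.129, adjusted p = 3.97e-07), and in the deposited column without strand it was -0.56. RAB13, which acts in tight junction assembly, was read at 11.9, 9.57 and 10.6 CPM in control and at 7.64, 8.60 and 7.14 CPM in LINC01638 siRNA libraries (1.38-fold lower, adjusted p = 0.000451). Of its exon bases, 24.8% are shared with another gene on the same strand. RAB10 and RAB8B, which carry vesicles from the trans-Golgi network to the plasma membrane, each had log2 -0.14 (adjusted p = 0.0321 and 0.0397), and their groups overlapped. Of the 15 alternative settings, RAB10 kept its call in 5 and RAB8B in 7. RAB10 missed the threshold without control library A or C (0.114 and 0.084) or LINC01638 siRNA library A or C (0.159 and 0.0934), and RAB8B without control library A or C (0.115 and 0.186) or LINC01638 siRNA library A (0.241), all adjusted p. RAB8A, the main paralogue of RAB8B and a Rab of apical and ciliary transport, did not pass: it was read at 149.9, 146 and 138 CPM in control and at 154, 153 and 159 CPM in LINC01638 siRNA libraries (adjusted p = 0.0803). Without control library A it passed as higher (adjusted p = 0.0217), and with scaling by library totals alone as well (0.00119).

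Early and recycling endosomal Rabs moved both ways. The 3 RAB5 genes, whose products drive fusion of early endosomes, were all higher. RAB5B was read at 116, 111 and 116 CPM in control and at 148, 152 and 154 CPM in LINC01638 siRNA libraries. The groups did not overlap (1.32-fold, log2 0.41, SE 0.0461, adjusted p = 2.99e-07). RAB5A had log2 0.19 (adjusted p = 0.00644) and RAB5C 0.18 (adjusted p = 0.00786), and the share of RAB5B in the summed RAB5 level per kilobase was 41.6% ± 0.163 in control and 45.3% ± 0.685 with LINC01638 siRNA. RAB5A missed the threshold without control library B (adjusted p = 0.0509). Of the exon bases of RAB5C, 28.8% are shared with another gene on the same strand. RAB22A, an early endosomal Rab related to RAB5, rose from 84.5, 74.1 and 80.6 CPM to 107, 110.2 and 107 CPM (1.35-fold, adjusted p = 5.65e-07). RAB21, which binds integrins on endosomes, RAB14, which acts between the Golgi and endosomes, and RAB35, a Rab of fast recycling, had log2 0.17, 0.18 and 0.16 (adjusted p = 0.0217, 0.00653 and 0.0099). RAB21 missed the threshold without control library B (0.169) or LINC01638 siRNA library B or C (0.0836 and 0.0832), and RAB35 without control library C (0.0774), all adjusted p. RAB17, a Rab of apical recycling in polarised epithelium, was low and higher with LINC01638 siRNA: 0.732, 0.801 and 1.02 CPM in control and 1.61, 1.19 and 1.41 CPM (log2 0.72, adjusted p = 0.00682).

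RAB31, which moves cargo such as mannose 6-phosphate receptors between the trans-Golgi network and endosomes, had the largest fall past the threshold among the tested Rabs of early and recycling endosomes. It was read at 137, 121 and 124 CPM in control and at 76.6, 90.1 and 79.1 CPM in LINC01638 siRNA libraries. Every control library was above every LINC01638 siRNA library (means 128 ± 8.64 and 81.9 ± 7.15 CPM, 1.56-fold lower, log2 -0.64, SE 0.0620, adjusted p = 7.83e-08). RAB12, which sends transferrin receptor from recycling endosomes to lysosomes, went from 63.6, 58.7 and 63.2 CPM to 42.4, 45.9 and 42.3 CPM (1.42-fold lower, adjusted p = 1.57e-07). RAB11B, a Rab of the slow recycling route, was read at 133, 129 and 126 CPM in control and at 114, 117 and 112 CPM in LINC01638 siRNA libraries (1.13-fold lower, adjusted p = 0.00276). RAB11A, its paralogue, had log2 -0.20 (adjusted p = 0.00371), and RAB11A held 28.0% of the summed RAB11 level per kilobase in control and 27.8% with LINC01638 siRNA, with overlapping libraries. RAB15, which also acts at recycling endosomes, was lower (log2 -0.20, adjusted p = 0.0136), though not past the threshold without control library A (adjusted p = 0.0509). With scaling by library totals alone RAB11A, RAB11B and RAB15 did not pass (adjusted p = 0.142, 0.162 and 0.207). The Rabs of fast recycling RAB4A and RAB4B and the phagosomal and endosomal RAB20 did not pass (adjusted p = 0.971, 0.228 and 0.592). RAB4A was read at 18.5, 16.9 and 18.2 CPM in control and at 16.2, 19.7 and 17.8 CPM in LINC01638 siRNA libraries, and RAB20 at 13.2, 11.5 and 12.3 CPM and at 12.4, 11.0 and 12.4 CPM.

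Among ER and Golgi Rabs, RAB6A had the lowest p. RAB6A serves retrograde traffic through the Golgi and the exit of secretory vesicles from it. It was read at 159, 143 and 154 CPM in control and at 106, 113 and 114 CPM in LINC01638 siRNA libraries, which do not overlap (means 152 ± 8.52 and 111 ± 4.01 CPM, 1.37-fold lower, log2 -0.46, SE 0.0512, adjusted p = 2.56e-07). RAB33B, a Golgi Rab that binds the autophagy protein ATG16L1, rose from 12.0, 12.0 and 12.1 CPM to 17.0, 17.4 and 17.3 CPM (1.43-fold, log2 0.52, adjusted p = 2.7e-06). RAB33A fell from 1.05 to 1.40 CPM to 0.654 to 0.882 CPM (log2 -0.65, adjusted p = 0.0189; 0.108 without control library C and 0.0641 without LINC01638 siRNA library B). RAB33B held 72.0% ± 3.07 of the summed pair per kilobase in control and 85.2% ± 1.98 with LINC01638 siRNA.

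Both RAB2 genes, which act between the ER and Golgi and on Golgi structure, were higher. RAB2B rose from 30.7, 28.4 and 26.7 CPM to 36.8, 36.9 and 41.7 CPM (1.35-fold, adjusted p = 1.58e-05), and RAB2A from 93.8, 86.5 and 90.6 CPM to 106, 111 and 108 CPM (1.20-fold, adjusted p = 0.000106). RAB1B, a Rab of ER to Golgi transport and the Rab gene with the highest level, fell by a small amount (log2 -0.13, adjusted p = 0.0281), as did RAB30, a Golgi Rab (log2 -0.16, adjusted p = 0.0385). RAB1B was read at 322, 298 and 297 CPM in control and at 272, 283 and 281 CPM in LINC01638 siRNA libraries. RAB1B missed the threshold without control library A (0.0962) or LINC01638 siRNA library A or C (0.114 and 0.0671), and RAB30 without control library A or C (0.0872 and 0.124) or LINC01638 siRNA library A or C (0.133 and 0.102), all adjusted p. Of the 15 alternative settings, RAB1B kept its call in 8 and RAB30 in 4. With scaling by library totals alone neither passed (adjusted p = 0.596 and 0.427). RAB1A, which shares the function of RAB1B, did not pass: it was read at 141, 128 and 133 CPM in control and at 139, 146 and 142 CPM in LINC01638 siRNA libraries. RAB18, found on the ER and lipid droplets, did not pass either, at 74.6, 65.6 and 69.9 CPM and 72.1, 76.0 and 72.7 CPM. Without control library A both passed as higher (adjusted p = 0.0272 for RAB1A and 0.0482 for RAB18). RAB6B and RAB43 had log2 0.19 and -0.21 (adjusted p = 0.0797 and 0.178), and 79.3% of the exon bases of RAB43 are shared with a readthrough gene, so its count is uncertain. Without LINC01638 siRNA library B both passed (adjusted p = 0.0364 for RAB6B and 0.0394 for RAB43).

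Of the genes assigned to no compartment, RAB42 was read at 6.04, 6.07 and 5.66 CPM in control and at 4.05, 3.29 and 3.71 CPM in LINC01638 siRNA libraries (1.61-fold lower, adjusted p = 2.51e-05). RAB40C, of a group of Rabs that carry a SOCS box and recruit ubiquitin ligases, was 1.18-fold lower (adjusted p = 0.00129). It was read at 43.5, 42.1 and 40.6 CPM in control and at 37.5, 34.1 and 35.2 CPM in LINC01638 siRNA libraries. RAB40B of the same group did not pass (log2 -0.29, adjusted p = 0.0543), but did without LINC01638 siRNA library B (adjusted p = 0.00856). RAB23, a negative regulator of Hedgehog signalling, and RAB28, linked to cilia, did not pass either (log2 0.04 and 0.05, adjusted p = 0.575 and 0.602). RAB23 was read at 37.5, 32.7 and 35.7 CPM in control and at 37.0, 35.2 and 36.9 CPM in LINC01638 siRNA libraries. RAB28 was read at 12.3, 12.7 and 13.7 CPM and at 13.6, 13.6 and 12.8 CPM.

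Levels of different Rabs were compared as CPM per kilobase of exon. RAB1B was highest in both groups, at 152 in control and 139 with LINC01638 siRNA. In control libraries RAB32 followed at 87.0 ± 7.43, then RAB10 at 60.0 and RAB7A at 57.9 ± 1.21, whose ranges overlap each other, and RAB11B at 52.4. With LINC01638 siRNA, RAB7A stood second at 109 ± 1.15, followed by RAB10 at 54.6, RAB32 at 49.1 ± 2.39 and RAB11B at 46.3. The sum over all Rab genes was 916 ± 37.3 CPM per kilobase in control and 885 ± 18.0 with LINC01638 siRNA. Late endosomal and lysosomal Rabs made up 23.7% of it in control and 24.8% with LINC01638 siRNA, and exocytic Rabs 17.4% and 16.5%, both without overlap of the libraries. Early and recycling endosomal Rabs made up 26.9% and 27.2%, with overlap, and ER and Golgi Rabs 29.1% and 28.7%, without overlap. In the late endosomal and lysosomal list, 3 genes were higher, among them RAB7A, and 6 were lower, among them RAB32. Exon lengths came from GENCODE 29, may differ from those used for counting, and merge all transcripts of a gene.

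**Figure D3:**
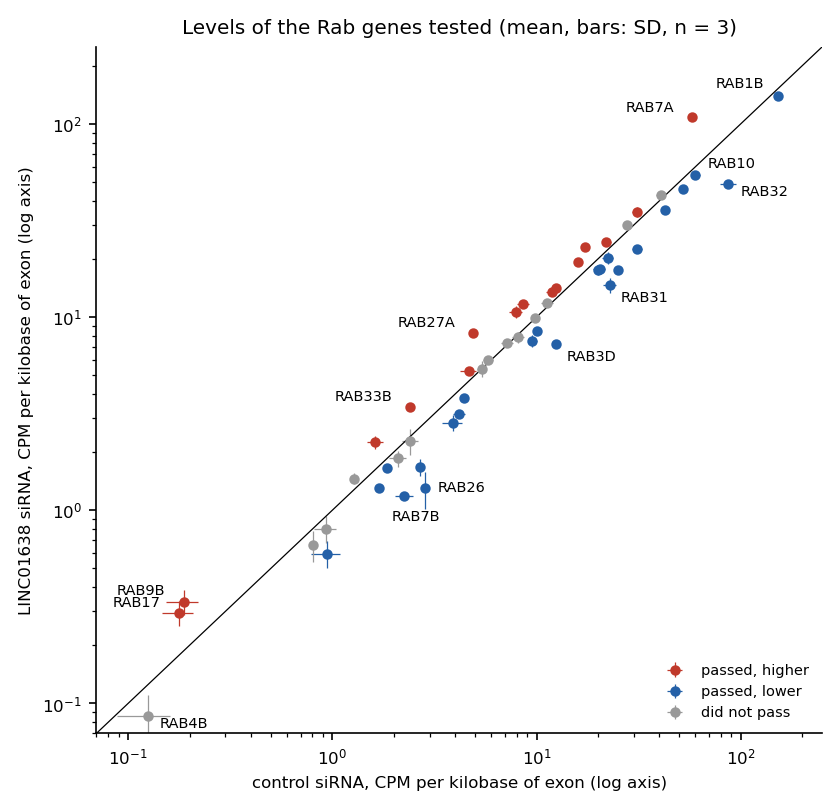
Level of each tested Rab gene in CPM per kilobase of exon, control siRNA on the horizontal and LINC01638 siRNA on the vertical axis, both on log scales, with points for means of 3 libraries and bars of 1 SD. RAB7A lies above the line of equal levels (57.9 and 109) and RAB32 below it (87.0 and 49.1).

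**Figure D4:**
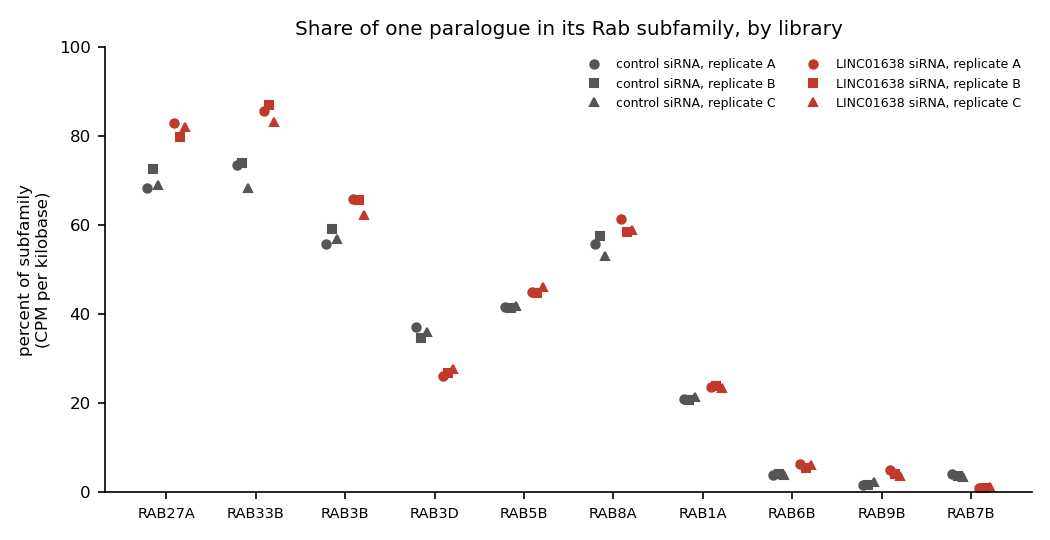
Share of 1 paralogue in the summed CPM per kilobase of its Rab subfamily, in percent, for each of the 6 libraries. RAB27A rises from a mean of 70.0% to 81.6% and RAB33B from 72.0% to 85.2%, while RAB7B falls from 3.74% to 1.07%.

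Reads of 50 bases can leave close paralogues undercounted, as can exons shared with an overlapping gene. Of the 52 tested Rab genes, 38 have at least 90% of their 50-base exon windows in no other annotated gene, among them RAB7A, RAB7B, RAB31 and RAB32 at 100% and RAB27A at 94.6%. The shares were lowest for RAB43 (20.0%), RAB23 (42.7%), RAB4B (60.2%), RAB8A (60.9%), RAB24 (61.8%) and RAB1B (66.0%). They were 75.2% for RAB5C, 78.7% for RAB3D and 79.9% for RAB6A. The other gene can lie elsewhere or at the same place, on either strand. RAB43, RAB24, RAB4B and RAB5C share 79.3%, 44.8%, 36.8% and 28.8% of exon bases with a gene on the same strand. RAB3D and RAB8A share 4.4% and 4.0%, and RAB23, RAB1B and RAB6A share 0. Windows stand for single reads, while the libraries held pairs. The deposited tables list 0 reads mapping to several places, so levels of these genes may be too low. The part of paralogues or overlap in this, and the effect on fold changes, was not tested.

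The proteins that act on Rabs were taken from a list of 161 genes, of which 154 were tested. Of these, 44 were higher and 56 lower, shares of 28.6% and 36.4%, close to those of all protein-coding genes. Among 12 tested genes of prenylation and membrane cycling, 3 were higher and 2 lower (median log2 0.10). RABGGTB, a subunit of the enzyme that attaches geranylgeranyl groups to Rabs, rose from 33.0, 33.2 and 33.9 CPM to 48.4, 52.6 and 51.7 CPM (log2 0.61, adjusted p = 1.12e-08). The partner subunit RABGGTA fell (log2 -0.41, adjusted p = 3.6e-05), as did RABAC1, a Rab acceptor at the Golgi (log2 -0.73, adjusted p = 3.22e-07). RCE1, a protease that trims prenylated proteins, was higher (log2 0.24, adjusted p = 0.00155). GDI2, which withdraws Rabs from membranes, did not pass (log2 0.10, adjusted p = 0.118). GDI2 and the remaining partners named here outside the 4 of lowest p in each list were named after their values were seen.

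Of 47 tested GEF genes, 13 were higher and 17 lower (median -0.06), and of 33 tested GAP genes, 10 were higher and 12 lower (median -0.03). RGP1, which with RIC1 activates RAB6, fell (log2 -0.84, adjusted p = 3.11e-10), as did RIC1 (log2 -0.18, adjusted p = 0.00731) and RAB6A itself (log2 -0.46). DENND3, the GEF of RAB12, fell as RAB12 did (log2 -0.75, adjusted p = 5.1e-09), and DENND6B was lower as well (log2 -1.25, adjusted p = 8.82e-09). RAB3GAP1 and RAB3GAP2, which together switch off RAB3 and switch on RAB18, were both higher (log2 0.51 and 0.39). RIN1, a GEF of RAB5, went from a mean of 36.3 to 16.7 CPM (log2 -1.12, adjusted p = 1.83e-08), opposite in direction to the RAB5 genes. Its relative RIN3 was higher (log2 0.15, adjusted p = 0.0182), and RIN2 and RABGEF1, further GEFs of RAB5, did not pass (log2 -0.09 and -0.24, adjusted p = 0.112 and 0.079).

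The regulators of RAB7 moved in different directions. MON1A, MON1B and CCZ1, parts of its GEF complex, were higher (log2 0.38, 0.17 and 0.29), although CCZ1 has a near-identical copy and is uncertain. TBC1D15, a GAP for RAB7, rose from 30.3, 28.8 and 29.9 CPM to 54.1, 55.0 and 53.9 CPM (log2 0.87, adjusted p = 5.47e-11). TBC1D2, a further RAB7 GAP, fell (log2 -0.70, adjusted p = 2.49e-09), and so did TBC1D5 (log2 -0.25). TBC1D9 had the lowest p of the GAP list (log2 -0.97, adjusted p = 9.32e-12), and TBC1D22A was lower too (log2 -0.64).

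Of 62 tested effectors, 18 were higher and 25 lower (median -0.06). VPS39 and VPS41, the Rab-binding subunits of the HOPS complex that tethers RAB7-bearing membranes to lysosomes, moved apart: VPS39 fell from a mean of 80.2 to 42.1 CPM (log2 -0.93) and VPS41 rose from 55.7 to 87.5 CPM (log2 0.65). RILP, which links RAB7 to dynein, was lower (log2 -0.41), as were FYCO1 and OSBPL1A, which also bind RAB7 (log2 -0.57 and -0.56), while the RAB7-bound adaptor PLEKHM1 was higher (log2 0.36). ANKRD27, also called VARP, an effector of RAB32 and RAB38, fell from 78.7, 78.6 and 77.0 CPM to 38.1, 41.7 and 39.5 CPM (log2 -0.97, adjusted p = 8.28e-12), in the same direction as both Rabs. The RAB11 effectors RAB11FIP5 and RAB11FIP1 were lower (log2 -0.86 and -0.80, adjusted p = 1.2e-11 and 2.35e-11), with means of 168 CPM each in control and 92.9 and 96.4 CPM with LINC01638 siRNA. Of the other members of that family, RAB11FIP4 was higher (log2 0.41, adjusted p = 0.0147), and RAB11FIP2 and RAB11FIP3 did not pass (log2 -0.03 and -0.01). Effectors of RAB5 moved both ways: the early endosomal tether EEA1 and RABEP1 were higher (log2 0.52 and 0.17), RBSN, APPL2 and APPL1 were lower (log2 -0.67, -0.61 and -0.32), and RABEP2 did not pass (log2 -0.03).

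RAB27A acts in melanosomes with the linker melanophilin (MLPH) and the motor myosin Va (MYO5A). In these cells RAB27A rose while MLPH went from 24.9, 26.7 and 24.5 CPM to 11.7, 13.3 and 11.2 CPM (log2 -1.07, adjusted p = 4.3e-10) and MYO5A from 92.9, 102 and 93.9 CPM to 51.9, 54.8 and 49.4 CPM (log2 -0.89, adjusted p = 6.11e-11). The other class V myosins, MYO5B and MYO5C, which bind RAB11 and other recycling Rabs, were higher from low levels: MYO5B went from a mean of 2.33 to 6.38 CPM (log2 1.46) and MYO5C from 1.08 to 3.14 CPM (log2 1.55). The libraries of the groups did not overlap for MLPH, MYO5A, MYO5B or MYO5C, as for 79.0% of tested effectors. Of the synaptotagmin-like effectors of RAB27, SYTL2, SYTL4 and SYTL5 were higher (log2 0.30, 0.31 and 0.22), SYTL3 was lower (log2 -0.35) and SYTL1 did not pass (log2 0.13).

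**Figure D5:**
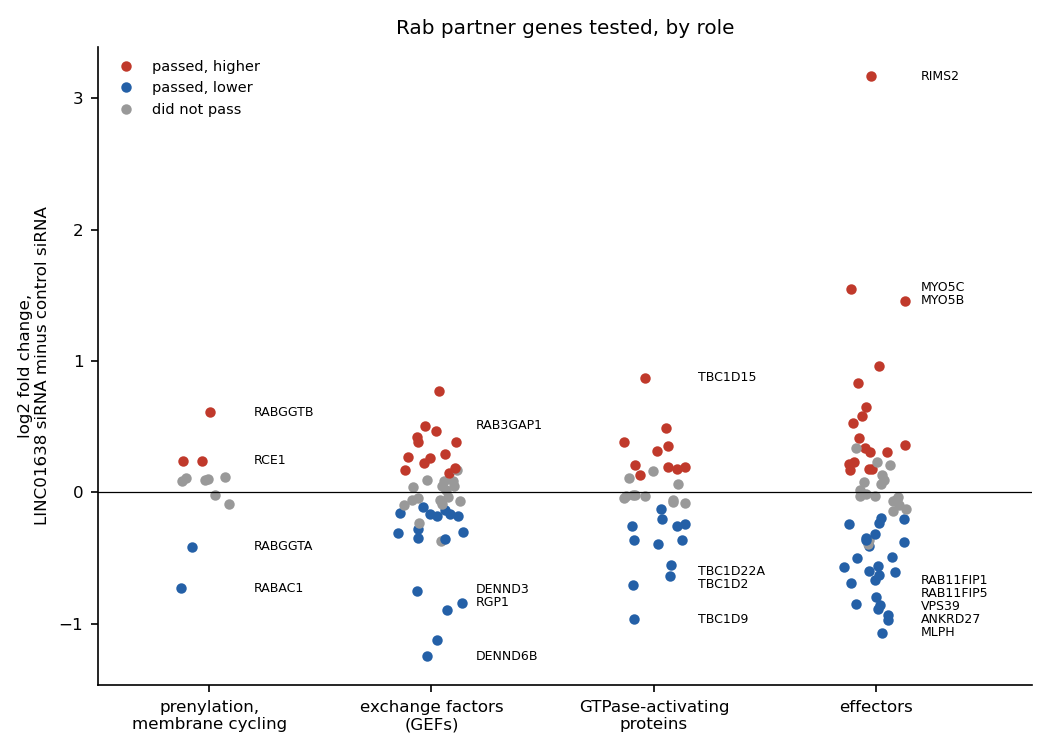
Log2 fold change (LINC01638 siRNA minus control siRNA) of the 154 tested genes that act on Rabs, 1 point per gene, in columns for prenylation and membrane cycling, GEFs, GAPs and effectors. Genes lie on both sides of 0 in each column, with medians of 0.10, -0.06, -0.03 and -0.06; the topmost effector, RIMS2 (log2 3.17), is below 1 CPM in every library.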

How the data were processed

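Strand-specific total RNA libraries of 12Z cells, 3 with control siRNA and 3 with LINC01638 siRNA, were grouped by their labels. The submitters' processing notes name the genome GRCh38 (hg38) and the tools R 4.2.1 and STAR 2.7.10b. The deposited values are whole-number counts per gene, without normalization, in 1 table per library. The annotation release and the mapper's settings were not given in the sources used here. Of the columns in each table, the reverse-strand one was used, which fits the directional kit: the forward column held 6.45% to 6.70% of stranded counts. Rows that name no gene (4) were left out. They hold unmapped reads, reads mapping to several places (0), reads outside exons, and reads over several genes (7.49% of mapped reads in control and 7.17% with LINC01638 siRNA, as means). Symbols matched 61918 identifiers exactly and 754 more without version, and positions and exons came from GENCODE 29.

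Counts were filtered with filterByExpr (minimum count 10, minimum total 15), scaled by TMM and tested in edgeR by the quasi-likelihood F test (robust, with group as the sole term), with Benjamini-Hochberg adjustment over 18569 genes and 0.05 as the threshold. A positive log2 fold change means higher with LINC01638 siRNA, the SE was obtained by dividing the size of the log2 fold change by the root of F, and the common biological coefficient of variation was 5.62%. Depth was 45617234 to 58148664 counts per library. Tools were Python 3.11.15 with pandas 2.3.3, numpy 2.4.6 and matplotlib 3.10.9, and R 4.3.3 with DESeq2 1.42.0, edgeR 4.0.16 and limma 3.58.1. The fit was tested on simulated data.

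Members, compartments and partner lists were compiled from general knowledge, and members and lists were chosen with earlier results of these data known. Values in every library are given, per compartment, for up to 5 members past the threshold of lowest p with at least 1 CPM. They are also given for up to 2 of highest level that did not pass, and for RAB17, which is outside this rule. Up to 4 partners past the threshold of lowest p are named per list. Subfamily shares use CPM per kilobase. Alternatives were other scalings, tools, filters and strands, the replicate letter as a block, and leaving out each library.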

Additional observations from a re-analysis of the deposited data

How the results depend on the processing

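Of the 38 Rab genes past the threshold, 25 kept their call under all 15 alternatives, 13 lost it under at least 1, and 0 reversed. The 13 are RAB1B, RAB3B, RAB5A, RAB8B, RAB10, RAB11A, RAB11B, RAB15, RAB21, RAB24, RAB30, RAB33A and RAB35. Scaling by library totals alone gave 14 lower Rab genes, 2 higher and 3 lower exocytic, 2 lower early endosomal, and 6 higher and 2 lower ER and Golgi Rabs, 8 higher prenylation genes and 10 lower GEFs. Its medians (log2) were -0.034 for Rab genes, -0.060 exocytic, 0.18 early endosomal, -0.20 late endosomal, 0.17 ER and Golgi and -0.14 unassigned. The stricter filter gave 2 higher exocytic and 5 higher and 2 lower ER and Golgi Rabs and 6 higher prenylation genes, with medians of -0.10 for Rab genes, 0.19 early, -0.26 late, 0.11 ER and Golgi and -0.20 unassigned. Protein-coding genes only gave those same counts and 11 lower GEFs, with medians of -0.094 for Rab genes, -0.12 exocytic, 0.12 early, -0.25 late, 0.11 ER and Golgi and -0.20 unassigned. The column without strand gave medians of -0.18 for Rab genes, 0.028 ER and Golgi and -0.29 unassigned, and RAB27A shares of 73.1% in control and 83.6% with LINC01638 siRNA. For these shifts the cause was not tested.

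The labels do not say whether a replicate letter pairs libraries of the 2 groups. Correlations of deviations between same-letter libraries were -0.0753, -0.0203 and -0.0177, beside -0.0317 to 0.0512 between libraries of different letters. With deviations from means of 3 libraries, these values cannot show whether a letter marks a shared culture. With the replicate letter as a block, 15 Rab genes were higher and 21 lower, and lower ER and Golgi Rabs went from 4 to 2. Each other count under the block was within 1.5 times its value without it: lower calls were 5 for exocytic and 3 for unassigned Rabs, 13 for GEFs and 11 for GAPs, higher GAPs were 9, and all genes had 4676 higher and 5286 lower.

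Leaving out each library in turn gave 13 to 18 higher and 18 to 25 lower Rab genes (median -0.15 to -0.089). ER and Golgi Rabs had 3 to 5 higher and 2 to 4 lower (0.023 to 0.13), early endosomal 6 to 8 and 4 to 5 (0.029 to 0.12), exocytic 1 to 2 and 4 to 7 (-0.19 to -0.11), late endosomal 3 and 5 to 6 (-0.31 to -0.25), and unassigned 2 to 3 lower (-0.24 to -0.093). Higher and lower calls were 3 to 5 and 2 to 3 for prenylation, 10 to 13 and 12 to 14 for GEFs, 9 and 11 to 12 for GAPs, 17 to 20 and 23 to 26 for effectors, and 4372 to 4681 and 5049 to 5409 for all genes. The 12 untested Rab genes had few counts, and their changes were not tested in the main fit. Without the filter 24 Rab genes were lower, beside 23 with it. RAB30 lost its call there and RAB40B gained one, so the further lower call fell among the untested genes. RAB6C stood at 0.0916 to 0.225 CPM in control and 0.0333 to 0.0385 CPM with LINC01638 siRNA. RAB6D stood at 0.114 to 0.169 and 0.0665 to 0.0916 CPM. Neither gene overlapped between the groups in CPM, as for 69.6% of tested protein-coding genes. These are few reads: RAB6C had 12, 4 and 8 counts in control and 2, 2 and 2 with LINC01638 siRNA. RAB6D had 9, 5 and 8 and then 5, 4 and 4, so its counts before scaling do overlap. Among the untested genes, RAB40AL, RAB6C and RAB6D have 19.2%, 33.9% and 43.7% of their 50-base windows in no other gene, and the part of this in their low counts was not tested. Without control library A there were 2 higher exocytic Rabs, 5 higher ER and Golgi Rabs and 5 higher prenylation genes, and lower ER and Golgi Rabs were 2 without control library A or C or LINC01638 siRNA library A or C.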

Other observations

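Some Rab genes lie beside a gene that acts on Rabs, within 100 kb on GRCh38 (GENCODE 29), and these pairs were looked at after their values were seen. MLPH and RAB17 lie 19.0 kb apart on chromosome 2 and moved in opposite directions (log2 -1.07 and 0.72). RAB9A and TRAPPC2, a subunit of the TRAPP complexes, lie 1.74 kb apart on chromosome X and also moved in opposite directions (log2 -0.35 and 0.47, adjusted p = 0.000449 and 8.53e-06 by edgeR's quasi-likelihood test). RAB11A overlaps DENND4A, a GEF of RAB10, on chromosome 15, with log2 -0.20 and 0.26. RAB21 and TBC1D15 lie 39.4 kb apart on chromosome 12 and were both higher (log2 0.17 and 0.87), and RAB1B and RIN1 lie 52.8 kb apart on chromosome 11 and were both lower (log2 -0.13 and -1.12).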
